A study of Mus musculus with 4 samples.

Results

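The 10 genes described here encode the cytosolic chaperone machine built on HSP90 and HSP70: the HSP90 genes Hsp90aa1 and Hsp90ab1, the HSP70 gene Hspa8, the HSP110-type exchange factors Hspa4 and Hsph1, the J-domain co-chaperones Dnaja1, Dnajb1 and Dnajb4, the adaptor Bag3, and the heat shock factor Hsf1. They were taken by their GENCODE mouse symbol from the 55401 genes of the count files, and all 10 were found and had enough counts to be tested. RNA came from semimembranosus, one of the hamstring muscles, taken from C57BL/6 mice 8 weeks old. The IVS_diosmin libraries (2) came from mice gavaged daily with diosmin, a plant flavonoid given as a vein-active drug, at 40 mg/kg, and the IVS libraries (2) from mice gavaged with saline. Both groups carry the same iliac vein stenosis, a ligature of the left external iliac vein tied over a 30-gauge needle, so there is no unoperated muscle among them. The labels do not say whether the 2 libraries of a group came from separate animals, so the spread behind each p-value is that between libraries and may be technical.

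HSP70 binds exposed hydrophobic stretches of unfolded proteins in a cycle driven by ATP. J-domain proteins bring it substrates and start ATP hydrolysis, and exchange factors such as the HSP110 proteins and Bag3 let ADP and substrate go. HSP90 takes over partly folded clients such as kinases and steroid receptors, and in muscle it also serves the folding of myosin. The heat shock factor Hsf1 is held inactive by these chaperones and, once freed by protein damage, binds repeats of the letters GAA in promoters and raises the transcription of many of them.

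With diosmin, 4 of the 10 genes fell: Dnajb1, Dnaja1, Hsp90aa1 and Hspa8, the first 3 to between 21.9% and 33.9% of their IVS mean and Hspa8 to 52.1%. None rose. Hsp90ab1, Hspa4, Hsph1, Dnajb4, Bag3 and Hsf1 did not pass the test. A gene was called at an adjusted p under 0.05 in edgeR's quasi-likelihood test across 13533 genes with Benjamini-Hochberg adjustment, from which every adjusted p below comes. Of all tested genes, 1.78% were called lower and 1.17% higher, 2.96% in all. The median log2 fold change of the 10 genes was -0.43, beside 0.01 over all tested genes. The 10 genes were chosen with earlier results of these data known, so neither comparison is a test of the set. In whole muscle, fewer cells of a type and less RNA per cell cannot be told apart. Leaving out 1 library, the number of the 10 genes called lower was 3 without either IVS replicate 1 or IVS_diosmin replicate 2, it was 1 without IVS replicate 2, and it was 0 without IVS_diosmin replicate 1.

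**Figure D1:**
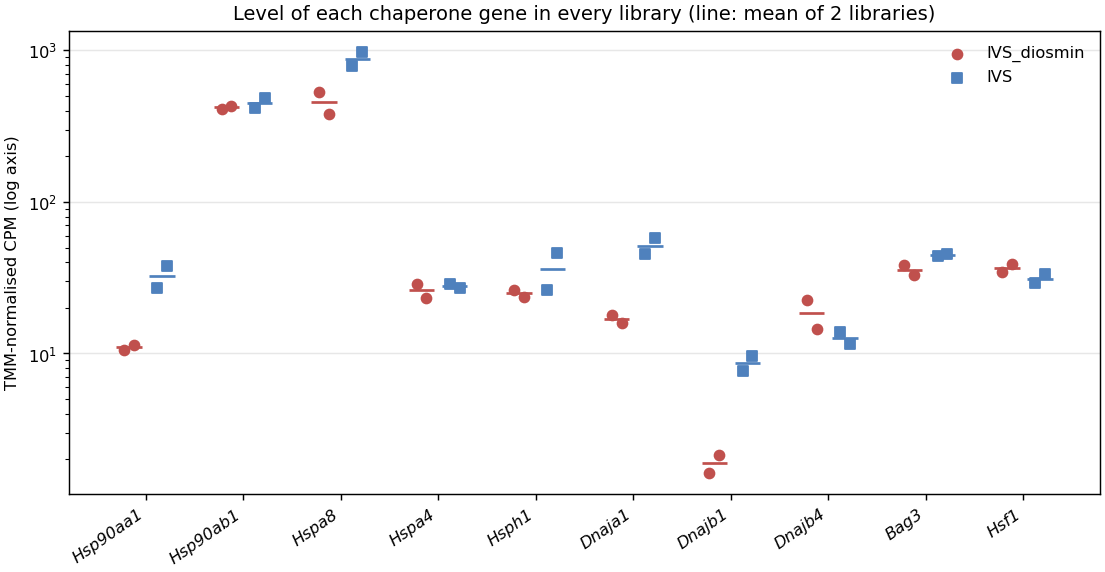
Level of each of the 10 genes in TMM-normalised CPM (counts scaled to a common library size, log axis), with 1 point per library, IVS_diosmin as circles and IVS as squares, and a line at the mean of 2 libraries. Dnajb1, Dnaja1, Hsp90aa1, Hspa8 and Bag3 have both IVS_diosmin points below both IVS points, and Dnajb4 and Hsf1 have them above.

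Of the HSP90 pair, Hsp90aa1 fell and Hsp90ab1 did not pass. Hsp90aa1 (mm10 chromosome 12, 110690605 to 110702728), the stress-inducible HSP90, had 10.6 and 11.3 CPM in IVS_diosmin replicates 1 and 2, against 27.0 and 37.8 CPM in IVS replicates 1 and 2. Both diosmin libraries were far below both IVS libraries, the higher of them at 41.8% of the lower IVS library. Its log2 fold change was -1.56 ± 0.24 (SE, adjusted p = 0.00571). The call was lost without IVS replicate 2 (log2 -1.31, adjusted p = 0.0603) and without IVS_diosmin replicate 1 (-1.51, 0.124).

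Hsp90ab1 (chromosome 17, 45567775 to 45573271), the constitutive HSP90, had 412 and 431 CPM in the diosmin libraries and 418 and 488 CPM in the IVS libraries. The groups overlapped, and the log2 fold change was -0.10 ± 0.20 (adjusted p = 0.859). Per kilobase of transcript, Hsp90aa1 was the minor form in every library and made up 1.94% and 1.98% of HSP90 with diosmin, against 4.73% and 5.61% in IVS. The 2 groups did not overlap in this share, but 2 libraries against 2 cannot go below p = 0.333 in an exact 2-sided permutation test, which is the value this share gave.

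The paired HSP90 genes are shown because a count can only tell them apart where their letters differ. Their coding sequences (GENCODE M21 transcripts) were identical at 76.6% of 2174 aligned bases, and the longest stretch without a difference was 33 bases. The last 60 coding bases, stop codon included, are given 5′ to 3′ with the 14 bases that differ between the genes in capitals.
Hsp90aa1: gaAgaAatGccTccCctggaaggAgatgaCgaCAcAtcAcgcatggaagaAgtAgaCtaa
Hsp90ab1: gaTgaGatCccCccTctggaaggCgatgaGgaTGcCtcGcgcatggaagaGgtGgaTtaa

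Hspa8 (chromosome 9, 40800984 to 40810087), the constitutive HSP70 of the cytosol, was the most abundant of the 10 genes by CPM in every library but IVS_diosmin replicate 2. It had 534 and 382 CPM in the diosmin libraries, against 786 and 972 CPM in the IVS libraries. The groups did not overlap, and within each group the libraries lay far apart. Its log2 fold change was -0.94 ± 0.23 (adjusted p = 0.0478), just inside the threshold. It missed the threshold without any 1 library, with log2 fold changes from -1.20 to -0.73 and adjusted p from 0.0546 to 0.327, under the median-ratio scaling of DESeq2 in the same edgeR fit (0.0524) and without robust estimation of the spread (0.0665), and it was called in 4 of 11 alternatives. Per kilobase of the principal transcript, Hspa8 stood at 1.36 and 0.934 times Hsp90ab1 with diosmin, against 1.98 and 2.1 times in IVS (exact 2-sided permutation p = 0.333, the smallest possible). The ratio depends on the length used: over all merged exons of each gene, retained introns included, Hspa8 stood at 0.902 and 0.619 times Hsp90ab1 with diosmin, against 1.31 and 1.39 times in IVS.

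The HSP110-type factors, large relatives of HSP70 that exchange its nucleotide, did not pass. Hspa4 (chromosome 11, 53259814 to 53300457) had 28.8 and 23.4 CPM in the diosmin libraries and 28.9 and 27.2 CPM in the IVS libraries, with overlapping groups and a log2 fold change of -0.11 ± 0.21 (adjusted p = 0.862). Hsph1 (chromosome 5, 149614287 to 149636376), also called HSP105 and inducible by heat, had 26.4 and 23.5 CPM with diosmin and 26.1 and 46.2 CPM in IVS. IVS replicate 2 alone stood high, and the other 3 libraries were close together. Its log2 fold change was -0.53 ± 0.26 (adjusted p = 0.342), and -0.07 without IVS replicate 2.

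The J-domain co-chaperones held the largest falls and the largest positive value of the 10 genes. Dnajb1 (chromosome 8, 83608193 to 83612653), the heat-inducible partner of HSP70 also called HSP40, had 1.62 and 2.15 CPM in the diosmin libraries, against 7.66 and 9.59 CPM in the IVS libraries. These are 21 and 31 reads with diosmin and 134 and 118 reads in IVS, so the diosmin levels rest on few reads. The log2 fold change was -2.18 ± 0.38 (adjusted p = 0.0112), and the higher diosmin library was at 28.1% of the lower IVS library. The call was lost without IVS replicate 2 (-2.02, adjusted p = 0.0989) and without IVS_diosmin replicate 1 (-1.99, 0.156).

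Dnaja1 (chromosome 4, 40722150 to 40737149), a farnesylated J-domain partner of HSP70, had 18.0 and 15.8 CPM with diosmin, against 45.3 and 57.5 CPM in IVS. The groups were well separated, with a log2 fold change of -1.61 ± 0.22 (adjusted p = 0.00367). It was the only one of the 10 genes still called without IVS replicate 2, and its call was lost without IVS_diosmin replicate 1 (-1.70, adjusted p = 0.0740). Dnaja1 lies opposite Smu1 and shares 608 bases of exon with it, so some of its reads cannot be told from those of Smu1, which had 120 and 207 reads with diosmin and 282 and 202 in IVS.

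Dnajb4 (chromosome 3, 152178511 to 152210302), a J-domain protein highly expressed in muscle, went the other way in value. It had 22.7 and 14.5 CPM with diosmin and 13.8 and 11.5 CPM in IVS, a log2 fold change of 0.55 ± 0.27 that did not pass (adjusted p = 0.326). The groups did not overlap, but the lower diosmin library was close to the higher IVS library. Per kilobase of the principal transcript, Dnajb4 made up 71.1% and 62.6% of the 3 J-domain genes with diosmin, against 34.5% and 25.8% in IVS. Dnaja1 made up 24.7% and 29.8% with diosmin, against 49.7% and 56.5% in IVS (exact 2-sided permutation p = 0.333 for each share). Over merged exons Dnajb4 made up 50% and 39.9% with diosmin, against 17.1% and 12% in IVS, where it was then the smallest share. Dnaja1 then made up 40.2% and 44% with diosmin, against 57% and 60.7% in IVS. On that length Dnajb4 was above Dnaja1 in IVS_diosmin replicate 1 and below it in IVS_diosmin replicate 2. With either length both diosmin libraries held a larger share of Dnajb4 and a smaller share of Dnaja1 than both IVS libraries. The level of the 3 genes together relative to Hspa8 had no direction that held with both lengths: per kilobase of the principal transcript it was 5.80% and 5.89% with diosmin and 4.94% and 4.46% in IVS, and over merged exons 4.17% and 4.67% with diosmin and 5.04% and 4.86% in IVS.

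**Figure D2:**
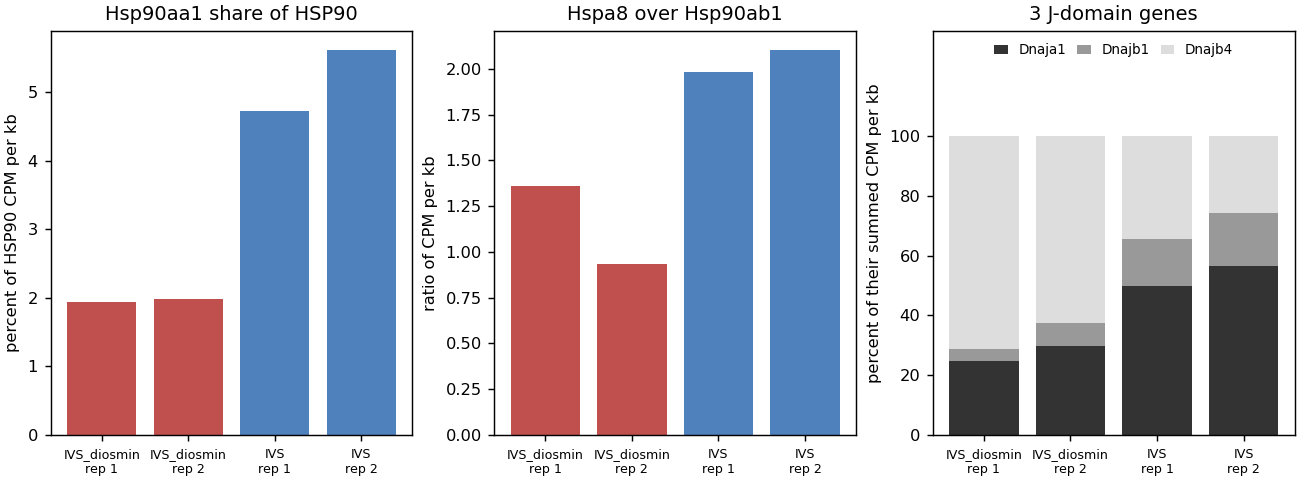
Proportions per kilobase of the principal transcript in each library, IVS_diosmin replicates left of IVS replicates: Hsp90aa1 as a percentage of both HSP90 genes, the ratio of Hspa8 to Hsp90ab1, and the shares of Dnaja1, Dnajb1 and Dnajb4 in their sum. Hsp90aa1 stays below 2% of HSP90 in both diosmin libraries. Dnajb4 is the largest J-domain share there (71.1% and 62.6%), while Dnaja1 is the largest in both IVS libraries. Over merged exons, not drawn, Dnajb4 holds 50% and 39.9% with diosmin and Dnaja1 40.2% and 44%, so Dnajb4 leads in IVS_diosmin replicate 1 only. The Hspa8 ratio over merged exons is 0.902 and 0.619 with diosmin.

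Bag3 (chromosome 7, 128523616 to 128546981) joins HSP70 to small heat shock proteins and steers damaged muscle filament proteins to autophagy. It had 38.5 and 32.8 CPM with diosmin and 43.9 and 45.3 CPM in IVS. Both diosmin libraries were lower, by a margin small beside those of the called genes, and the log2 fold change of -0.32 ± 0.20 did not pass (adjusted p = 0.471). Hsf1 (chromosome 15, 76477422 to 76501913), the transcription factor of the heat shock response, had 34.4 and 38.9 CPM with diosmin and 29.0 and 33.4 CPM in IVS (log2 0.23 ± 0.21, adjusted p = 0.644). The groups did not overlap in Hsf1, but the gap between them was smaller than the distance between the libraries of either group. Counted without the test, both diosmin libraries were below both IVS libraries in 5 of the 10 genes and above in 2, beside 24.1% and 23.4% of all tested genes. For genes chosen with earlier results known, this count is a description only.

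**Figure D3:**
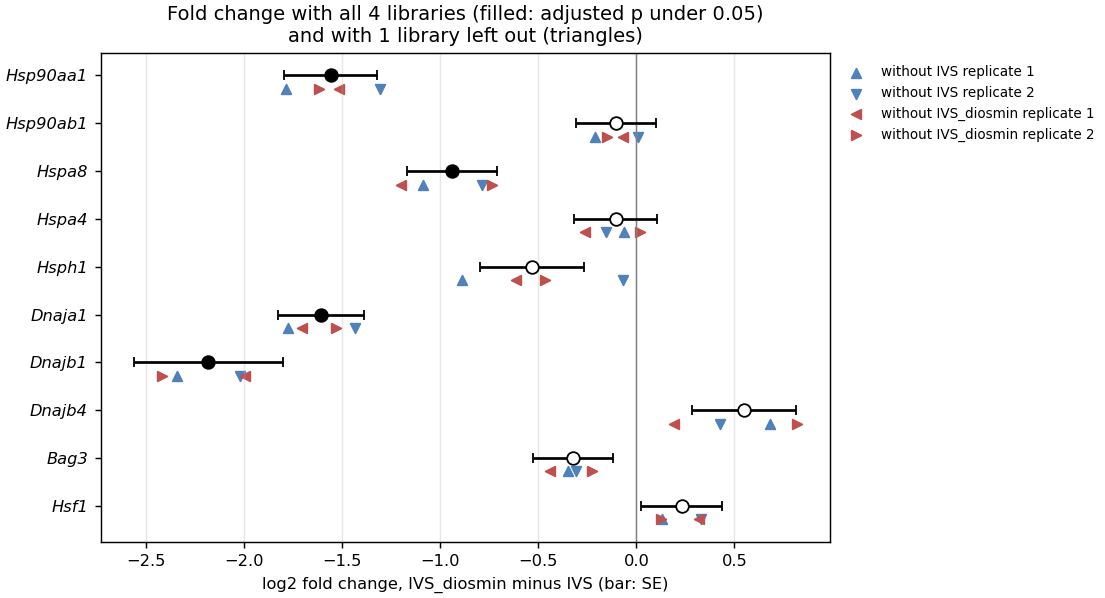
Log2 fold change (IVS_diosmin minus IVS) of each of the 10 genes with its standard error, filled where the adjusted p was under 0.05, and below it as triangles the values with 1 library left out. Dnajb1, Dnaja1, Hsp90aa1 and Hspa8 stay at or below -0.73 in every such fit, Hsph1 spreads from -0.89 to -0.07, and Hsp90ab1 and Hspa4 lie about 0.

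Ordered by level per kilobase of the principal transcript, the diosmin means ran from Hspa8 (191 CPM per kilobase) and Hsp90ab1 (167) through Hsf1 (17.6), Bag3 (13.9), Dnajb4 (7.54), Hsph1 (6.56), Hspa4 (5.65), Hsp90aa1 (3.35) and Dnaja1 (3.00) to Dnajb1 (0.629). The IVS means ran from Hspa8 (367) and Hsp90ab1 (180) through Bag3 (17.4), Hsf1 (15.0), Hsp90aa1 (9.88), Hsph1 (9.50), Dnaja1 (9.14), Hspa4 (6.07) and Dnajb4 (5.14) to Dnajb1 (2.88). In diosmin muscle the libraries of Hspa8 and Hsp90ab1 overlapped, as did those of Dnajb4, Hsph1 and Hspa4. In IVS muscle those of Hsp90aa1, Hsph1 and Dnaja1 overlapped, while Hspa8 and Hsp90ab1 stood apart from each other and from the rest. The order depends on the length used, at its ends too. Over merged exons Hspa8 was at 107 CPM per kilobase with diosmin, below Hsp90ab1 at 141, and at 204 in IVS, above Hsp90ab1 at 151. Dnajb1 was last with diosmin on both lengths, but in IVS over merged exons Dnajb4 (1.44) was below Dnajb1 (2.69). Hsf1 was then at 5.16 CPM per kilobase with diosmin and 4.4 in IVS. Hspa8 and Hsp90ab1 together carried 83.9% and 83.4% of the summed CPM of the 10 genes with diosmin, against 84.5% in both IVS libraries, and that sum was 1127 and 976 CPM with diosmin against 1425 and 1728 CPM in IVS.

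Within the groups, 8 of the 10 genes were higher in IVS replicate 2 than in IVS replicate 1, all but Hspa4 and Dnajb4. With diosmin, 6 of the 10 were higher in replicate 1 than in replicate 2. The matching shares of all tested genes were not counted, so neither count is a trait of these genes. Hsph1 had the widest gap in IVS, with replicate 1 at 0.565 times replicate 2. The 5 tested genes outside the lists whose centred log2 CPM over the 4 libraries lay nearest to the median of the 10 genes were Sart1, Rnaseh2c, Pde12, Hyal2 and Eed, with root mean square differences of 0.036 to 0.040. None of them passed (adjusted p from 0.259 to 0.640), and nearness over 4 libraries is a description only.

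Reads that fit more than 1 place in the genome were left out of the gene counts, and the 10 genes differ in how much of their sequence has copies. Of the 50-base windows of the principal transcript, 74.8% in Hspa8, 58.5% in Hsp90aa1 and 28.8% in Dnaja1 were found letter for letter in transcripts of other genes, many of them processed pseudogenes. The share was 4.49% in Hsp90ab1 and 0 in Hspa4, Hsph1, Dnajb4, Bag3 and Hsf1. In Dnajb1 it was 0.441%, from 13 windows found across 533 other genes. The levels of Hspa8, Hsp90aa1 and Dnaja1, and every proportion that holds them, are therefore uncertain. For Dnaja1, 10% of the windows matched Smu1 and 0.449% matched Mir207, which both overlap it at the same place. A match to these alone is not a copy elsewhere in the genome. The share of reads aligned to more than 1 place was 45.6% and 43.6% in the diosmin libraries, against 37.7% and 38.8% in the IVS libraries, and its part in the 3 falls was not tested. Of the 13 genes that share Hspa8 windows, 12 had a row in the counts. Gm26825, a lincRNA gene that holds 69% of the windows, had none, so its reads could not be looked at. Gm15459, which holds 70.0% of the Hspa8 windows, had 80 and 53 reads with diosmin and 148 and 162 in IVS. Gm8355, with 46.0% of the windows, had 15 reads in each diosmin library and 63 and 28 in IVS. The other 10 copies with a row had at most 7 reads in any library.

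**Figure D4:**
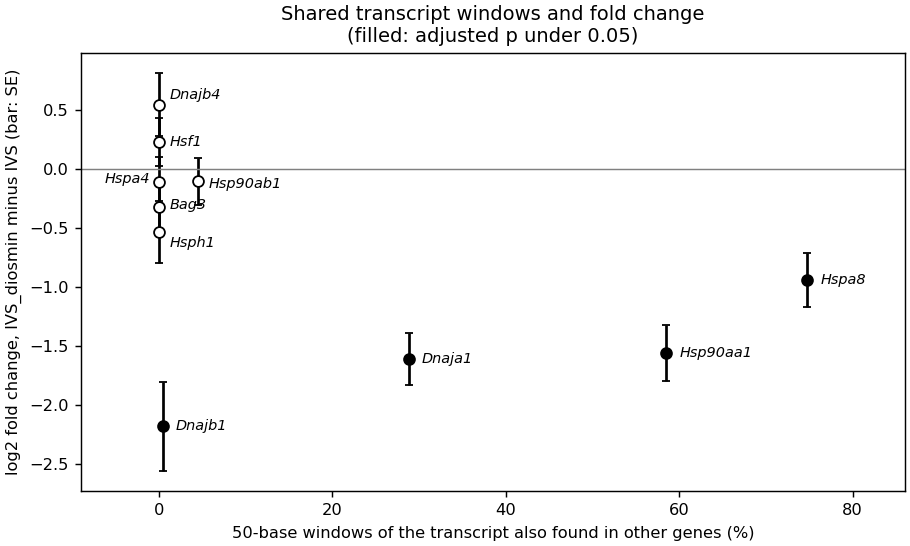
Share of each gene's 50-base transcript windows found in other genes (horizontal, %) against its log2 fold change with standard error (vertical), filled where the adjusted p was under 0.05. Of the 4 filled genes, Hspa8, Hsp90aa1 and Dnaja1 hold 74.8%, 58.5% and 28.8% of shared windows and Dnajb1 holds 0.441%. In Dnaja1, 10% of the windows match Smu1, which overlaps it at the same place.

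Stretches of promoter are shown because Hsf1 is known to bind heat shock elements, arrays of GAA and its reverse complement TTC. RefSeq windows (GRCm38.p6, 250 bases before to 50 after each start) were at hand for 6 of the 10 genes, 11 windows in all, for Hspa4, Hsph1, Dnaja1, Dnajb1, Dnajb4 and Bag3, and not for Hsp90aa1, Hsp90ab1, Hspa8 and Hsf1. The pairs GAANNTTC and TTCNNGAA each read the same on both strands. Either was found in at least 1 window of Hsph1, Dnaja1, Dnajb4 and Bag3, and either was found in 15.1% of all 32851 windows and for 17.0% of genes. A run of 3 units, GAANNTTCNNGAA or TTCNNGAANNTTC (reverse complements of each other, each holding both pairs), was found in Hsph1 and in 0.603% of all windows. The match of Dnaja1 begins 124 bases before the first of its 3 listed starts, and its windows 2 and 3 hold none. The match of Dnajb4 begins 14 bases before the second of its starts, and its first window holds none. The first match of Hsph1 begins 33 bases before the first listed start and its run of 3 units at transcribed base 37, and the match of Bag3 begins at transcribed base 43. Matches stand in capitals, with up to 30 bases either side, 5′ to 3′ on the strand of the gene, and the stretch for Dnajb1 holds none.
Hsph1, chr5:149636287-149636399, minus strand: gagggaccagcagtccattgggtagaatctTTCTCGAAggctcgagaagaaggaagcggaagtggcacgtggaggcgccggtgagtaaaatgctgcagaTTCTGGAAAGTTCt
Dnaja1, chr4:40722314-40722381, plus strand: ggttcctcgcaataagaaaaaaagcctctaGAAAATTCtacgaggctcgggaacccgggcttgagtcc
Dnajb4, chr3:152193822-152193889, minus strand: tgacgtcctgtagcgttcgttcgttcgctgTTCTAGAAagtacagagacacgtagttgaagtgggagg
Bag3, chr7:128523595-128523632, plus strand: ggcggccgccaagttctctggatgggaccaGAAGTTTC
Dnajb1, chr8:83608095-83608224, plus strand: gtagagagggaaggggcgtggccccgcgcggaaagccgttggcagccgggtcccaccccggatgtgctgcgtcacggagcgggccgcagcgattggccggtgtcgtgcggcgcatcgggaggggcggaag

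Of these 5 genes Dnajb1 and Dnaja1 fell. Dnajb1 had no match and Dnaja1 had 1, near the first of its 3 listed starts only. Hsph1, with the run of 3 units, did not pass. A match is a run of letters and says nothing of binding, and a part of Hsf1 in any of the falls was not tested.

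Around the 10 genes, 83 others were listed in 9 chaperone families. Of these 83 genes, 81 were tested, 7 fell and 2 rose. Of all tested genes, 1.78% were called lower and 1.17% higher. The other HSP70 and HSP110 genes, apart from those in the mitochondrial and reticulum lists, had a median log2 fold change of -0.43, with 1 of 9 called. The median ran from -0.82 without IVS_diosmin replicate 1 and -0.78 without IVS replicate 1 to -0.24 without IVS_diosmin replicate 2. The called gene was Hspa1l, an HSP70 gene best known from testis, which rose: it had 21.7 and 16.9 CPM with diosmin, against 8.58 and 7.48 CPM in IVS (log2 1.26 ± 0.26, adjusted p = 0.0233). Its call was lost without IVS replicate 2 (adjusted p = 0.169) and without IVS_diosmin replicate 1 (0.221). The heat-inducible HSP70 gene Hspa1b was at 0.771 and 1.94 CPM with diosmin and 2.80 and 5.77 CPM in IVS and did not pass (adjusted p = 0.156, and 0.0468 with no filter on low counts). Its level is uncertain because Hspa1a is nearly identical. Hspa1a was at 4.55 and 1.94 CPM with diosmin and 3.54 and 4.39 CPM in IVS, with overlapping groups (log2 -0.29, adjusted p = 0.822).

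The other families that work with HSP70 and HSP90 held no called gene, though single genes passed under some alternatives, and their medians were small and moved with single libraries. The 9 other J-domain genes had a median log2 fold change of 0.23 with 8 higher values, led by Dnajc21, a ribosome maturation factor (0.89, adjusted p = 0.0935, past the threshold with no filter at 0.00608 and in DESeq2 at 0.0470), and Dnajb2, which is enriched in neurons (0.36, 0.436). Leaving out IVS replicate 1 brought this median to 0.11, leaving out IVS_diosmin replicate 2 to 0.14, and library totals alone to 0.12. The 8 other exchange factors and cofactors had a median of 0.12, which turned to -0.03 without IVS replicate 1 and stood at 0.02 both with library totals alone and when IVS_diosmin replicate 2 was left out. Among them were Bag5, an exchange factor, at -0.86 (adjusted p = 0.153) and Hspbp1, another, at -0.63 (0.320). The 17 tested HSP90 co-chaperones had a median of -0.06, which turned to 0.01 when IVS replicate 2 was left out and ran down to -0.18 when IVS_diosmin replicate 2 was left out, -0.13 for IVS replicate 1 and -0.17 with library totals alone. Without IVS replicate 1, Fkbp5, a co-chaperone of steroid receptors named after its values were seen, was called (-1.84, adjusted p = 0.00567); with all libraries it was at -1.11 (0.640), with 123 and 233 reads with diosmin and 175 and 567 reads in IVS. Among them Nudc, a co-chaperone of dynein regulators, was at -0.71 (adjusted p = 0.125), and Unc45b, the myosin chaperone of muscle, was at -0.35 (0.447), with 156 and 196 CPM with diosmin and 238 and 211 CPM in IVS. The 3 other heat shock factors and regulators had a median of 0.17, which turned to -0.07 when IVS_diosmin replicate 1 was left out and stood at 0.08 without IVS replicate 1 and 0.06 with library totals alone. Of these, Hsbp1 was at 0.21 (adjusted p = 0.666) and Hsf2 at -0.21 (0.734), where the sign of Hsf2 turned without IVS replicate 1 (0.02).

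Chaperones of other kinds differed more between families. The 8 subunits of the chaperonin TRiC, which folds actin and tubulin, had a median of -0.37, and none was called. This median was -0.49 without IVS replicate 1, -0.47 with library totals alone and -0.15 without IVS_diosmin replicate 1. Cct3 came closest, with 22.7 and 21.1 CPM with diosmin and 34.7 and 46.8 CPM in IVS (log2 -0.89 ± 0.22, adjusted p = 0.0519), followed by Cct7 (-0.59, 0.164). Cct3 was past the threshold under upper quartile scaling (0.0486), library totals alone (0.0332), no filter on low counts (0.0054), DESeq2 (0.0202) and without IVS replicate 1 (0.0388).

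The 7 small heat shock proteins held 1 called gene in each direction. Their median of -0.10 had no stable sign, and each of the 4 libraries moved it when left out, running from -0.25 without IVS replicate 1 to 0.03 when IVS replicate 2 was left out. Hspb6 (0.83, adjusted p = 0.100), named after its values were seen, was called higher with no filter (0.00731), in DESeq2 (0.0163) and without IVS_diosmin replicate 2 (0.0369). Hspb1 fell to 51.2 and 36.4 CPM with diosmin, against 106 and 123 CPM in IVS (log2 -1.39 ± 0.22, adjusted p = 0.00770), and lost its call without IVS replicate 2 (0.0676) and without IVS_diosmin replicate 1 (0.0717). Hspb7, a partner of filamin C in heart and muscle, rose to 177 and 84.9 CPM with diosmin, against 26.5 and 29.5 CPM in IVS (log2 2.23 ± 0.32, adjusted p = 0.00964). The 9 genes listed with the mitochondrial chaperones, the protease genes Lonp1 and Clpp included, had a median of 0.09, and none was called. Their median turned to -0.03 when only library totals were used for scaling and to -0.08 without IVS_diosmin replicate 2. It was 0.03 without IVS replicate 2. Dnaja3, a mitochondrial J-domain protein, was at 0.69 (adjusted p = 0.159) and Grpel1, the exchange factor of mitochondrial HSP70, at 0.32 (0.620).

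All 11 tested chaperones of the endoplasmic reticulum had both diosmin libraries below both IVS libraries, as did 24.1% of all tested genes. Their median log2 fold change was -1.08. Beside 1.78% of all tested genes called lower, 6 of the 11 fell. These were Hspa5 (-1.47), the HSP70 of this compartment, Hsp90b1 (-1.35), its HSP90, Pdia3 (-1.30) and Pdia6 (-1.08), disulfide isomerases, Dnajb9 (-1.15), a J-domain partner of Hspa5, and Calr (-1.06), the lectin calreticulin. Hsp90b1 had 28.1 and 30.4 CPM with diosmin, against 65.9 and 83.5 CPM in IVS (adjusted p = 0.00622). The 6 calls were lost without IVS replicate 2 (adjusted p from 0.0603 to 0.204) and without IVS_diosmin replicate 1 (0.0937 to 0.216), and that of Calr without IVS_diosmin replicate 2 as well (0.0579). So among HSP90 genes the reticulum form Hsp90b1 and the cytosolic Hsp90aa1 fell, and the difference of either from Hsp90ab1 was not tested in the model. The mitochondrial HSP90 gene Trap1 had 34.4 and 39.8 CPM with diosmin and 36.2 and 33.3 CPM in IVS (log2 0.09, adjusted p = 0.876).

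**Figure D5:**
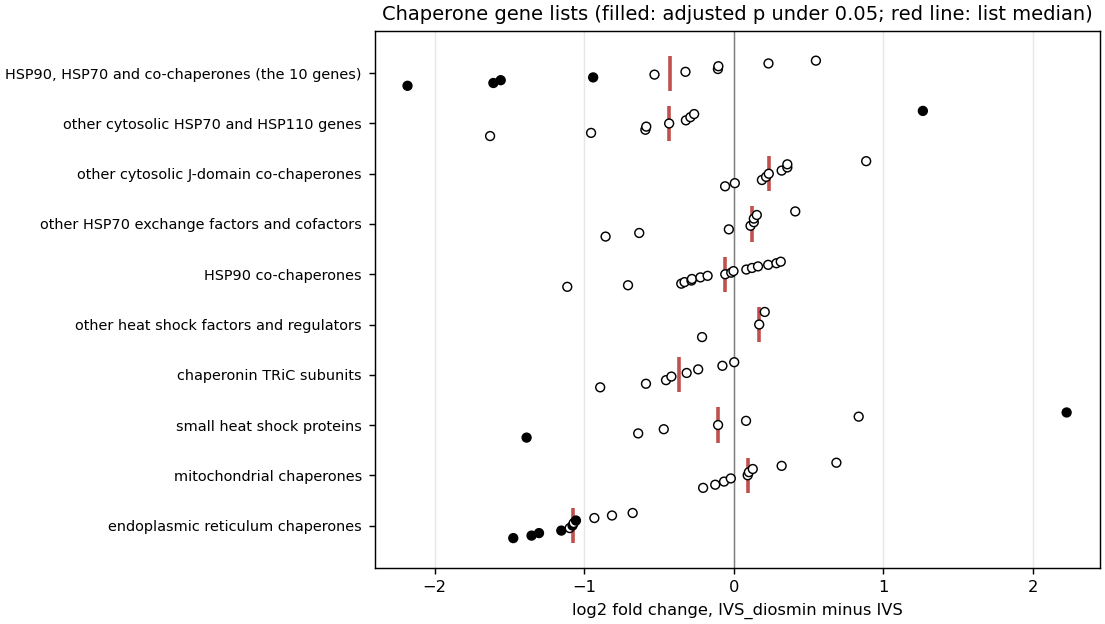
Log2 fold change (IVS_diosmin minus IVS) of each tested gene in the 10 genes and 9 other chaperone lists, filled where the adjusted p was under 0.05, with the list median as a vertical line. All 11 endoplasmic reticulum genes lie below 0, while the other J-domain genes have a median of 0.23.

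Gene counts ran from 13056650 to 15324354 per library. Genes of muscle fibres were high throughout, with Ckm, the muscle creatine kinase, at 15853 and 18104 CPM with diosmin and 14199 and 18679 CPM in IVS. Of the 6 fibre markers 2 rose, Mb, which encodes myoglobin (log2 1.16, adjusted p = 0.0460), and Des, which encodes desmin (0.88, 0.0365). Acta1 was at 0.58 (adjusted p = 0.184), and the 6 summed to 71521 to 76317 CPM with diosmin and 66442 to 75219 CPM in IVS. Other signs moved with the groups beside the falls above, and their part in them was not tested. The 8 endothelial markers were all lower (5 called), with summed levels of 223 to 246 CPM with diosmin and 458 to 477 CPM in IVS. The 6 slow fibre markers all rose (1033 to 2632 CPM with diosmin, 21.8 to 22.5 CPM in IVS). The adipocyte markers summed to 182 to 216 CPM with diosmin and 415 to 511 CPM in IVS, nearly all of it Fabp4, which endothelium also expresses, and Lep was at 0 in 3 libraries. The 8 macrophage markers were not separated (28.4 to 48.6 CPM with diosmin, 26.6 to 53.1 CPM in IVS), and the 4 neutrophil markers S100a8, S100a9, Ly6g and Csf3r were at 0 in every library. Schwann cell markers were highest in IVS replicate 2, at 175 CPM, against 30.5 CPM in IVS replicate 1 and 48.7 and 87.7 CPM with diosmin. Markers of fibroblasts (154 to 194 CPM with diosmin, 124 to 228 CPM in IVS), smooth muscle (207 to 231 and 224 to 226 CPM), satellite cells (12.3 to 19.0 and 11.5 to 19.6 CPM) and erythrocytes (8.71 to 19.9 and 1.72 to 11.9 CPM) overlapped between the groups. An annotated rRNA gene held 1.16% and 0.936% of gene counts with diosmin, against 4.14% and 3.80% in IVS, and Rn7sk, a nuclear RNA without a poly(A) tail, had 11.9 and 5.97 CPM with diosmin and 34.6 and 33.5 CPM in IVS.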

How the data were processed

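Poly(A) RNA of semimembranosus muscle was sequenced in 4 libraries, 2 per group. The authors deposited unscaled gene counts, with a separate file for each library. The submitters' processing notes name HISAT2 2.1.0, HTSeq and mm10. The version of HTSeq, the annotation release and the strand setting are not given in the sources used here, and the kit is not described as keeping strand. The 5 HTSeq summary lines, 72.3% to 75.1% of the reads, were left out. Of 55401 identifiers, 55141 matched GENCODE M21, which gave symbols and positions.

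Genes were filtered with filterByExpr, scaled by TMM and tested, IVS_diosmin minus IVS, 2-sided, with the robust quasi-likelihood test of edgeR 4.0.16 (R 4.3.3, limma 3.58.1), with Benjamini-Hochberg adjustment over all 13533 tested genes. The standard error is the fold change over the root of F. The biological coefficient of variation was 0.235. Alternatives were other scalings, no filter, no robust estimation, DESeq2 1.42.0, a replicate block and leaving out each library; merged exon length for proportions was added after seeing the data. The test was tried on simulated data first. Levels per kilobase used the APPRIS principal transcript, the longest where several are listed. Shared windows were exact 50-base matches, either strand, among GENCODE transcripts. Of each other chaperone list, called genes are named, or the 2 of smallest p where fewer than 2 were called. Other genes named were quality or cell type signs, or picked after their values were seen (Smu1, Mir207, Gm15459, Gm8355, Fkbp5, Hspb6, Hspa1a, Trap1). The 10 genes and the lists were chosen with earlier results of these data known.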

Additional observations from a re-analysis of the deposited data

How the results depend on the processing

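The 10 genes had no call in the higher direction under any of the 11 alternatives, and 4 were called lower under upper quartile scaling, library totals alone, no filter on low counts and DESeq2, and 3 under DESeq2's size factors in edgeR and without robust estimation. The median log2 fold change of the 10 genes was negative throughout and ran from -0.62 to -0.23 with 1 library left out. Over all tested genes 400 were called (241 lower, 159 higher), 919 with no filter, 606 with DESeq2, and 38 to 366 with 1 library left out; the number of the 10 genes called lower then ran from 0 to 3. In the fits with a group of 1 library, the spread comes from the other group only. With library totals alone the median of all tested genes shifted to -0.11 and the split became 337 lower and 115 higher. With a replicate block 93 genes were called, 2 of them among the 10 (Hsp90aa1 and Dnaja1); Hspa8 was then at an adjusted p of 0.143 and Dnajb1 at 0.0727, and 2 reticulum genes and 1 small heat shock protein were called. Same-numbered libraries share only a number: their deviations correlated at 0.01 over genes. Single log2 values that turned sign with 1 library left out were Hsp90ab1 (-0.212 to 0.007, turned without IVS replicate 2), Hspa4 (-0.262 to 0.019, IVS_diosmin replicate 2), Hsf2 (-0.413 to 0.021, IVS replicate 1) and Grpel1 (-0.148 to 0.662, IVS_diosmin replicate 2), none of them called in any fit. Depth limits Dnajb1 most, with 21 reads in its lowest library; intervals from counts would cover counting error only.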
